A study of Mus musculus with 30 samples.

Results

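Mammary glands carrying the Her2/Neu oncogene were compared with wild-type (WT) glands in mice whose type I interferon receptor is intact. The arrays were chosen by their titles alone, 6 of Her2/Neu+ and 7 of WT glands, which is 13 of the 30 arrays in the series. All mice were of the 129sv background and 19 weeks old, and the tissue was the inguinal mammary gland. The series also holds 8 IFNAR1-/- arrays, whose mice lack a chain of the interferon receptor, and 9 Her2/Neu+/IFNAR1-/- arrays, which enter here through the shared estimate of the spread and through the test of a difference between receptor states. The labels name neither the promoter that drives the oncogene, nor the transgenic line, nor whether a gland held a lesion, and they number samples without tying them to litters. The p-values therefore measure the spread between these samples.

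Her2/Neu (ERBB2) is a receptor tyrosine kinase that, when overactive in mammary epithelium, signals through RAS and ERK and through PI3-kinase and drives mammary carcinomas in mice. Type I interferons act on the receptor chains IFNAR1 and IFNAR2, whose Janus kinases lead to the induction of antiviral genes through a promoter element called the interferon-stimulated response element. The inguinal gland of a mouse that is not nursing is mostly fat, with a branched epithelium, connective tissue, vessels and a lymph node embedded in it.

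RNA of each gland was labelled with Cy5 and hybridised beside a Cy3-labelled universal mouse reference RNA on a 2-colour Agilent array, so every level below is a log2 ratio of gland over reference and every change is Her2/Neu+ minus WT on the log2 scale. The deposited scale stops at 6, or 64-fold, and a gene at that limit in both groups cannot show a change. Each of the 13 arrays held 19213 to 20679 values, of which 2712 to 10044 shared all their digits with another value of that array. These are called repeated values here, and how they were made is not given in the sources used here. Correlations over probes ran from 0.673 to 0.858 among WT arrays and from 0.394 to 0.824 among Her2/Neu+ arrays. The array Her2/Neu+ 114 stands apart, with a median correlation of 0.412 to its own group and 0.447 to WT, so some list medians are also given without it. Fat and epithelial markers of the tissue were present. Adipoq and Fabp4, defining genes of adipocytes, sat at the limit of the scale on all 13 arrays and Plin1 nearly so. Krt18, a luminal keratin, stood at 0.54 ± 1.39 (SD, n = 6) in Her2/Neu+ and 0.53 ± 0.54 (n = 7) in WT glands. The change of Krt8 was 0.36 ± 0.71 (SE, adjusted p = 0.901), and the basal keratins Krt14 and Krt5 had changes of -0.86 and -1.04 that did not pass. In Krt14 3 of 4 Her2/Neu+ values are repeated values. In whole glands, fewer cells of a type and less RNA per cell cannot be told apart.

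Of 11942 genes tested, 12 rose in Her2/Neu+ glands, 0.100% of all, and 2 fell, 0.0167% (limma, Benjamini-Hochberg adjusted p under 0.05). The genes that rose encode antiviral enzymes (Oas1f, Oasl2, Oas1a), the interferon-inducible apolipoprotein L gene Apol9b, a milk protein (Lalba), proteins of the secretory pathway (Xbp1, Sdf2l1), genes induced by growth factor signalling (Ier3, Epha2), a carbonic anhydrase (Car12), and Bglap2 and BC018473. The genes that fell were Tsc22d3, a glucocorticoid-induced gene, and Fn1, which encodes fibronectin. The median change of all genes was -0.02, and 48.7% of genes had a positive change. At an unadjusted p under 0.05 there were 627 genes higher and 773 lower, and 38 genes had an adjusted p under 0.1. The 627 and 773 of 11942 genes are the background for list counts at that unadjusted p below. After quantile normalization 15 genes rose and 8 fell, so the split between rises and falls depends on the scaling.

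**Figure D1:**
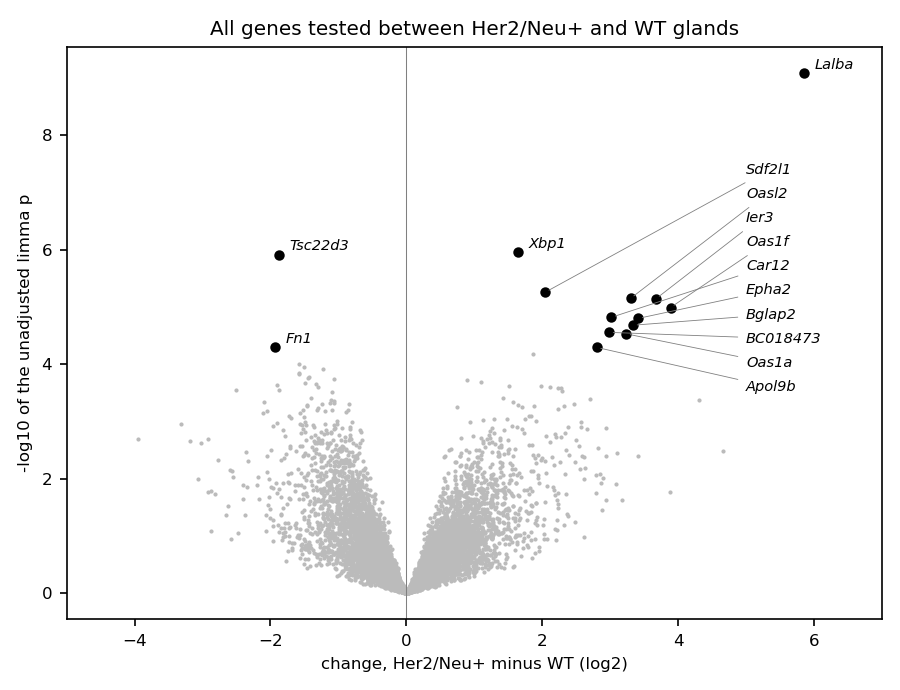
Change of each of the 11942 genes (x axis, Her2/Neu+ minus WT, log2) against -log10 of its unadjusted limma p (y axis). Black points are the 14 genes past the adjusted threshold, 12 of them to the right of 0, and grey points are all other genes.

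Interferon-induced genes stood higher in Her2/Neu+ glands as a group. All 35 measured members of a list of 41 interferon-stimulated genes had a positive change, with a median of 1.26 beside -0.02 for all genes, and 3 of the 35 rose. Two-sided unadjusted limma p-values under 0.05 were found for 21 of the 35, all higher, beside 627 of 11942 genes higher. The 3 that rose, Oas1f, Oasl2 and Oas1a, belong to the oligoadenylate synthetase family, enzymes and related proteins that respond to double-stranded RNA.

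The level of Oas1f ran from -0.33 to 2.76 with a median of 1.79 in Her2/Neu+ glands, and from -3.53 to -1.51 with a median of -2.58 in WT glands. The groups did not overlap, and the gene rose by 3.89 ± 0.73 (SE), or 14.8-fold (adjusted p = 0.0175). Oasl2 ran from -0.09 to 3.44 (median 1.78) against -2.83 to -0.87 (median -1.54) in WT, again without overlap, and rose by 3.30 ± 0.60 (adjusted p = 0.0143), although 3 of its 7 WT values are repeated values. Oas1a ran from -0.59 to 3.13 (median 1.63) against -2.64 to -0.80 (median -1.73) and rose by 3.24 ± 0.65 (adjusted p = 0.0294). Its 2 probes differed in size but not in direction, with changes of 2.35 and 4.12. In Oas1a too the groups did not overlap, and in each of these 3 genes the Her2/Neu+ values were spread more widely than the WT values. Oas genes are close relatives, and whether a probe also detects a neighbour was not tested.

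Other members gave large changes that did not pass the test. Oas2, another synthetase, had a change of 2.58 ± 0.72 (adjusted p = 0.151) with all 6 Her2/Neu+ arrays above all 7 WT arrays. Irf7, the transcription factor that amplifies interferon production, had a change of 2.58 ± 0.82 (adjusted p = 0.183). Oasl1 had a change of 2.23 ± 0.54 (adjusted p = 0.0920), Ifit3, an inhibitor of viral translation, of 2.28 ± 0.55 (adjusted p = 0.0920) and Isg15, a ubiquitin-like modifier, of 2.28 ± 0.67 (adjusted p = 0.163). Of the 25 members with a value on all 13 arrays, 5 stood wholly above WT, beside 0.314% of the 9862 genes so measured. The list mean per array, taken after each gene was centred, ran from -0.24 to 1.95 in Her2/Neu+ and from -1.15 to -0.12 in WT glands. It was highest on Her2/Neu+ 118, and 5 of 6 Her2/Neu+ arrays exceeded every WT array, the exception being Her2/Neu+ 114. The mean of all genes ran from -0.19 to 0.14 in Her2/Neu+ and from -0.09 to 0.05 in WT glands. On that mean 3 of 6 Her2/Neu+ arrays exceeded every WT array and 2 lay below all. The list median was 1.44 without Her2/Neu+ 114.

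The receptor and its kinases showed no shared direction. Over 9 measured genes for interferon ligands, receptors and Janus kinases, 3 changes were positive and 6 negative, with a median of -0.35 and none past the threshold in limma (1 at an unadjusted p under 0.05). That median was -0.13 without Her2/Neu+ 114, -0.22 without 118, -0.23 without 119 and 0.068 with repeated values missing. Ifnar1 had a change of 0.35 ± 0.60 (adjusted p = 0.881), which turned to -0.23 without Her2/Neu+ 114, and Ifnar2 of -0.35 ± 0.35 (adjusted p = 0.756).

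The apolipoprotein L genes encode intracellular lipid-binding proteins, several of them interferon-inducible. Apol9b ran from -0.74 to 2.61 (median 1.39) in Her2/Neu+ and from -2.11 to -0.94 (median -1.77) in WT glands, without overlap, and rose by 2.80 ± 0.59, or 6.97-fold (adjusted p = 0.0435). Its neighbour Apol9a, a close copy, ran from -0.20 to 2.73 against -1.42 to -0.84, also without overlap, with a change of 2.23 ± 0.58 (adjusted p = 0.120). The copies may share signal, which was not tested. Over 5 measured members of the family the median change was 1.66, 4 changes were positive and 1 rose. The middle member is Apol10b, at 1.66 ± 0.58 (limma, adjusted p = 0.234), whose groups overlap and in which 6 of 7 WT values are repeated. Without Her2/Neu+ 114 and 119 that median was 0.65.

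The promoters of Oas1a, Apol9b and Apol9a are shown because these 3 genes hold the same run of 16 bases close to their start, on the strand of the gene in Oas1a and on the opposite strand in the Apol9 genes. The run, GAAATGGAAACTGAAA, holds 2 overlapping matches of the interferon-stimulated response element core GAAANNGAAA and is 1 match of its extended form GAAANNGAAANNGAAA. The sequences are the 90 bases before a start site, in the direction of the gene, from RefSeq on the mouse build GRCm38.p6, with the run in capitals. Oas1a lies at chr5:120907526-120907615 on the minus strand, Apol9b at chr15:77728982-77729071 on the plus strand and Apol9a at chr15:77411081-77411170 on the minus strand.
Oas1a: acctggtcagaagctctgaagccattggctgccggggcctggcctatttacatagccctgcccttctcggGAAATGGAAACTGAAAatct
Apol9b: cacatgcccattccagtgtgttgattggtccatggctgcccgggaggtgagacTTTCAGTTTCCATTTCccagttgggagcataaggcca
Apol9a: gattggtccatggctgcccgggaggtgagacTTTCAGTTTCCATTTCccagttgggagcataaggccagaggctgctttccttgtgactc

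The exact run occurs in the 250 bases before the start of 5 genes in the RefSeq table, the other two being Oas1c and Oas1g. On both strands of those 250 bases, the core was found in 2.98% of 32851 promoters and in 3.14% of the 9176 tested genes that have a promoter entry. It was found in 12 of 27 interferon-stimulated genes, or 44.4%. The extended form was in 0.0913% of promoters and in 0.185% of tested genes with an entry. It was in 4 of the 28 genes with an entry that stood wholly above WT, namely Apol9a, Apol9b, Oas1a and Bst2. Bst2 encodes the antiviral tethering protein tetherin. The 250 bases before Oas1f and Oasl2 hold no match to the core, so the letters are neither in every gene that rose nor only in genes that rose.

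Genes of antigen presentation by MHC class I, many of which interferons induce, had a median change of 0.31 over 16 members. Of these 11 were positive and none passed the threshold. In limma 4 were higher and 1 lower at an unadjusted p under 0.05, beside 627 and 773 of 11942 genes. That median was 0.17 without Her2/Neu+ 118 and 0.47 without 115. H2-Q7, a class Ib molecule, had a change of 0.92 ± 0.35 (adjusted p = 0.281). For MHC class II the median over 8 members was -0.0085, and it ran from -0.11 to 0.13 with 1 array left out. Casp4, an inflammatory caspase that interferon also induces, lay just outside the threshold, at -1.39 to 0.35 (median -0.43) in Her2/Neu+ and -2.99 to -1.66 (median -2.37) in WT glands, with a change of 1.86 ± 0.40 (adjusted p = 0.0522) and no overlap. Casp1, the caspase of the inflammasome, had a change of 2.12 ± 0.51 (adjusted p = 0.0920).

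**Figure D2:**
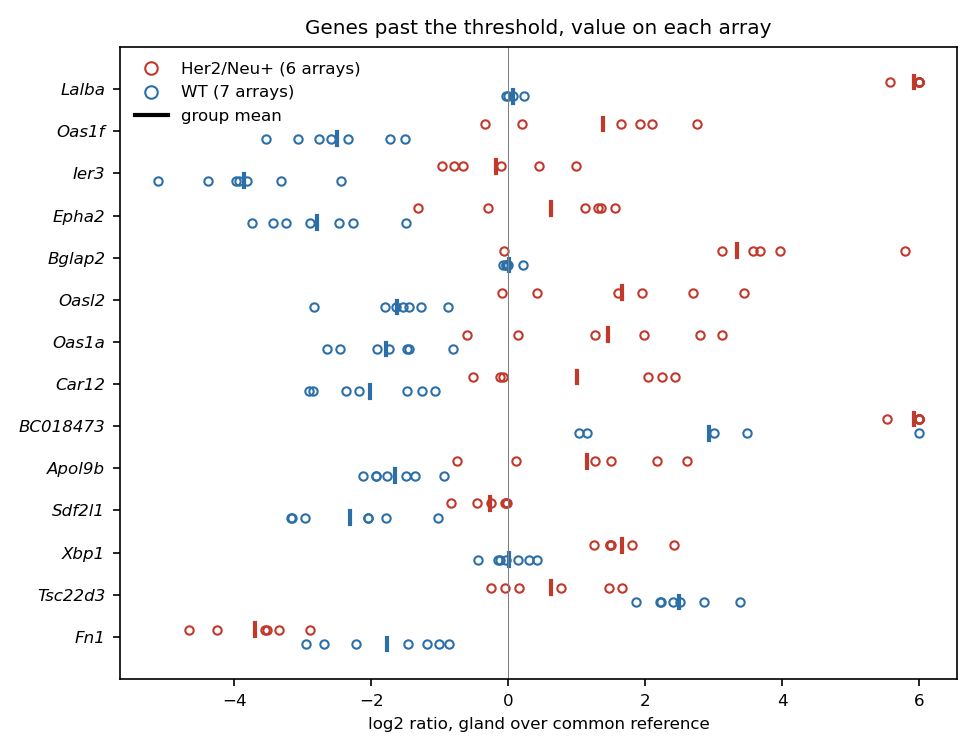
Log2 ratio of gland over reference (x axis) on each of the 6 Her2/Neu+ arrays (red) and 7 WT arrays (blue) for the 14 genes past the threshold, with group means as vertical bars. The groups overlap in Bglap2, BC018473 and Fn1, and Lalba and BC018473 lie at the limit of 6 on 5 of 6 Her2/Neu+ arrays each.

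Lalba, the gene of alpha-lactalbumin, which directs lactose synthesis in milk, gave the largest difference. It lay at the limit of 6 on 5 Her2/Neu+ arrays and at 5.57 on the sixth, Her2/Neu+ 115, while the 4 WT arrays with a value lay between -0.03 and 0.24. All 4 WT values are repeated values and the Her2/Neu+ values are truncated, so the change of 5.86 ± 0.54 (adjusted p = 9.77e-06) is no measured size. Over the 12 measured members of the milk and secretory list Lalba alone rose, 9 changes were positive and 3 negative, and the median was 0.49. Btn1a1, butyrophilin of the milk fat globule, had a change of -0.67 ± 0.25 (adjusted p = 0.261), and Glycam1, a secreted mucin of the gland, a change of -1.75 ± 0.74 (adjusted p = 0.344) with 5 of 6 WT values at the limit. The 4 Her2/Neu+ values of Glycam1 ran from -0.02, on Her2/Neu+ 119, to the limit. With 1 array left out its change ran from -2.34 to -0.33. Folr1, a folate receptor expressed in lactating epithelium, had a change of 2.07 ± 0.78 (adjusted p = 0.273), which was -0.48 in array set 2 alone, the last 15 arrays of the series. In Folr1 4 of 6 WT values are repeated values.

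Genes of the secretory pathway stood higher. Xbp1 encodes the transcription factor that expands the endoplasmic reticulum (ER) when protein folding is under load. Its level ran from 1.26 to 2.42 (median 1.50) in Her2/Neu+ and from -0.44 to 0.42 (median -0.03) in WT glands. All Her2/Neu+ glands lay well above all WT glands, and Xbp1 rose by 1.65 ± 0.27, or 3.13-fold (adjusted p = 0.00485). Sdf2l1, a partner of the ER chaperone complex, ran from -0.83 to -0.01 (median -0.15) against -3.17 to -1.03 (median -2.05) and rose by 2.04 ± 0.37, or 4.12-fold (adjusted p = 0.0143). The groups did not overlap, but 2 Her2/Neu+ and 3 WT values of Sdf2l1 are repeated values. With repeated values missing Sdf2l1 was lost, at 2.02 ± 0.45 (adjusted p = 0.0581).

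Over all 27 listed genes of XBP1 signalling, ER folding and the unfolded protein response, 22 changes were positive and 5 negative, with a median of 0.46, and 2 rose. The list mean ran from -0.04 to 0.49 in Her2/Neu+ and from -0.39 to -0.11 in WT glands, so each of the 6 Her2/Neu+ arrays exceeded every WT array. Hsp90b1, the ER chaperone GRP94, ran from -0.60 to 0.11 (median -0.46) against -1.34 to -0.79 (median -1.12), without overlap, and had a change of 0.75 ± 0.19 (adjusted p = 0.117). Derl3, of the ER degradation channel, had a change of 1.89 ± 0.61 (adjusted p = 0.188), but its 7 WT values are all repeated and Her2/Neu+ 114 alone reached 4.72. Hspa5, the main ER chaperone BiP, had a change of -0.26 ± 0.43 (adjusted p = 0.878), and Calr, calreticulin, of -0.03 ± 0.42 (adjusted p = 0.987). Neither of these 2 widely used folding genes stood higher. Xbp1 and Derl3 are also markers of plasma cells, and on that list of 8 genes Jchain, the joining chain of secreted antibodies, had a change of 0.38 ± 0.26 (adjusted p = 0.605). The list mean of plasma cells ran from -0.52 to 1.55 in Her2/Neu+ and from -0.48 to -0.02 in WT glands, with Her2/Neu+ 114 highest, and its part in the rise of Xbp1 was not tested.

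The promoter of Hsp90b1 is shown because it holds 2 matches, 1 on each strand, of the ER stress element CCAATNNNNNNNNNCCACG, through which folding genes respond to stress. The stretch is bases -220 to -81 counted from the start, chr10:86705525-86705664 on the minus strand of GRCm38.p6 (RefSeq), with the matches in capitals.
Hsp90b1: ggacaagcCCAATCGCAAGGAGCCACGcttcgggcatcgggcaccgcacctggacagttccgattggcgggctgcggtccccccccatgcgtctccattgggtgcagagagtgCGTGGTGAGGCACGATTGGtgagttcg
The element was found in 0.113% of all promoters searched on both strands, in 0.174% of tested genes with an entry and in 8 of 22 genes of the list, or 36.4%. Those 8 include Hspa5, Calr and Pdia6, whose changes were -0.26, -0.03 and -0.22, and the element is not in the 250 bases before Xbp1 or Sdf2l1.

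Listed ERK targets and feedback genes also stood higher. Of 15 measured ERK targets and feedback genes 14 had a positive change, with a median of 0.90, and 2 rose. That median was 1.41 without Her2/Neu+ 119 and 0.38 in array set 2 alone. The list mean ran from -0.05 to 1.43 in Her2/Neu+ and from -1.07 to -0.27 in WT glands, and each of the 6 Her2/Neu+ arrays exceeded every WT array. Ier3, an early response gene that modulates ERK and survival signalling, ran from -0.96 to 0.99 (median -0.38) against -5.11 to -2.44 (median -3.93) and rose by 3.67 ± 0.67, or 12.8-fold (adjusted p = 0.0143). Epha2, an ephrin receptor, ran from -1.32 to 1.56 (median 1.22) against -3.74 to -1.49 (median -2.89) and rose by 3.41 ± 0.66, or 10.7-fold (adjusted p = 0.0210). Neither gene's groups overlapped. Etv1 and Etv5, ETS transcription factors downstream of ERK, had changes of 2.71 ± 0.68 (adjusted p = 0.116) and 2.12 ± 0.63 (adjusted p = 0.165), each above all WT arrays on 5 of 6. A separate list of 19 measured immediate early genes, which also holds Ier3, had a median of 0.21, with 13 positive and 6 negative changes. Its only member to rise was Ier3. The list mean of 3 of 6 Her2/Neu+ arrays exceeded every WT array, and so did the mean of all genes on 3 of 6. With 1 array left out that median ran from 0.16, without Her2/Neu+ 119, to 0.43, without 120.

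The ERBB family had a median change of 0.025 over 9 receptors and ligands and none past the threshold in limma (0 at an unadjusted p under 0.05). The sign of that median is not settled, since with 1 array left out it ran from -0.16, without WT 54, to 0.26, without Her2/Neu+ 114, and over all settings it ran from -0.28 to 0.27. Mouse Erbb2 ran from -0.0024 to 1.13 (median 0.50) in Her2/Neu+ and from -0.37 to 0.63 (median -0.0046) in WT glands, which overlap, and had a change of 0.32 ± 0.28 (adjusted p = 0.705). Of its 10 probes 7 were higher and 3 lower, with changes from -0.37 to 1.34, and whether any of them detects the transgene is not given in the sources used here, so Erbb2 does not check the labels. Nrg1, a ligand of the family, had a change of 1.16 ± 0.57 (adjusted p = 0.431).

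Glucocorticoid-induced genes were mostly lower. Tsc22d3 encodes GILZ, a leucine zipper protein that carries much of the anti-inflammatory action of glucocorticoids. It ran from -0.24 to 1.67 (median 0.47) in Her2/Neu+ and from 1.87 to 3.39 (median 2.40) in WT glands. Every Her2/Neu+ gland lay below every WT gland, and Tsc22d3 fell by 1.87 ± 0.31 (log2), which is 3.65-fold (adjusted p = 0.00485). With the 2 compared groups alone in the fit Tsc22d3 was lost (adjusted p = 0.0720).

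Of 21 measured glucocorticoid targets 19 had a negative change, with a median of -0.44, and 1 fell. Klf9, a circadian and glucocorticoid-responsive transcription factor, ran from -0.44 to 1.80 against 1.35 to 2.74 and had a change of -1.41 ± 0.35 (adjusted p = 0.116). Pdk4, which restrains glucose oxidation, had a change of -2.92 ± 0.85 (adjusted p = 0.163), with 4 of 7 WT values at the limit of the scale. Lcn2, a secreted lipocalin of inflamed epithelium and neutrophils, went the other way, from 2.56 to 3.62 (median 2.75) in Her2/Neu+ against 0.77 to 2.19 (median 1.28) in WT glands, without overlap, a change of 1.51 ± 0.36 (adjusted p = 0.0920). The list mean lay between -1.13 and 0.03 in Her2/Neu+ and between 0.00 and 0.79 in WT glands, and 5 of 6 Her2/Neu+ arrays lay below all WT arrays. Without Her2/Neu+ 114, which had the lowest mean, the median was -0.59. AGAACA, a core motif of the glucocorticoid response element, occurs on either strand in 16.1% of the promoters searched and in 13.2% of tested genes with an entry. Among listed genes with an entry it occurs in 2 of 17, Tsc22d3 and Sgk1. Among genes past the threshold with an entry it occurs in 4 of 11, Tsc22d3 and also Oas1a, Oas1f and Oasl2, which rose.

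**Figure D3:**
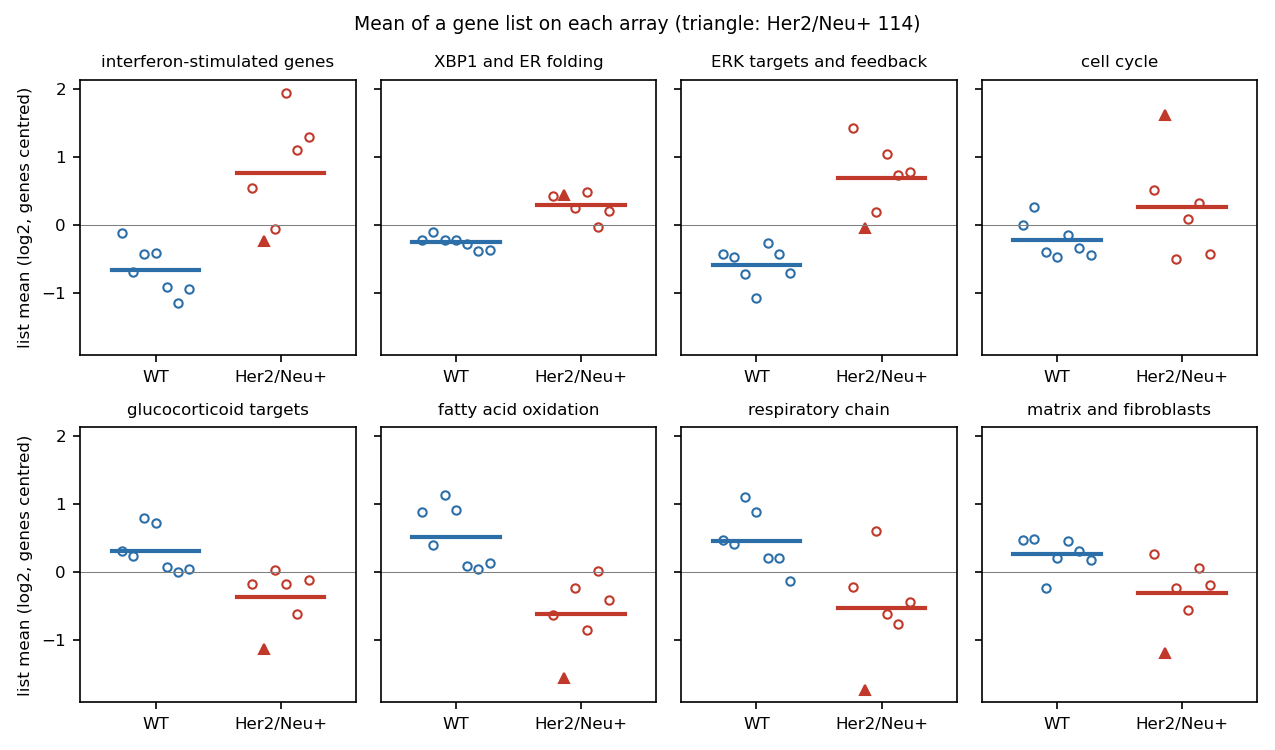
Mean of 8 gene lists on each array (y axis, log2, each gene centred on its mean over the 13 arrays), WT in blue and Her2/Neu+ in red, with group means as bars and Her2/Neu+ 114 as a filled triangle. For the ER folding and ERK lists all 6 Her2/Neu+ arrays lie above all WT arrays, for fatty acid oxidation all 6 lie below, and Her2/Neu+ 114 is the lowest in the 4 lists of the bottom row.

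Genes of energy metabolism were lower, and no member of these lists passed the test. All 15 measured genes of fatty acid oxidation had a negative change, with a median of -1.14, and the list mean ran from -1.56 to 0.01 in Her2/Neu+ against 0.04 to 1.13 in WT glands, with all 6 arrays below all WT arrays. Of 28 respiratory chain genes 27 had a negative change, with a median of -0.98, and 5 of 6 arrays lay below all WT arrays. At an unadjusted p under 0.05 there were 8 of 15 and 21 of 28 lower, in limma, beside 773 of 11942 genes. Without Her2/Neu+ 114, which was lowest in both lists, the medians were -0.90 and -0.78, and without both 114 and 119 that of the respiratory chain was -0.59. Without Her2/Neu+ 115, the Her2/Neu+ array highest in the respiratory chain list, 4 fatty acid oxidation genes and 11 respiratory chain genes passed, all lower. In that fit 87 of all 11942 genes passed as lower.

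Hadhb, a subunit of the mitochondrial trifunctional protein, ran from -0.05 to 3.06 (median 1.78) in Her2/Neu+ and from 2.62 to 4.09 (median 3.14) in WT glands, which overlap, and had a change of -1.59 ± 0.36 (adjusted p = 0.0901). Acadvl, the very long-chain acyl-CoA dehydrogenase, had a change of -1.56 ± 0.41 (adjusted p = 0.123). Ndufb8, a subunit of complex I, ran from -1.89 to 0.21 (median -0.58) against -0.03 to 1.19 (median 0.85), a change of -1.43 ± 0.33 (adjusted p = 0.0920). In complex III, Uqcrc2 had a change of -1.09 ± 0.26 (adjusted p = 0.0946). All 10 of its probes were lower but differed in size, from -2.14 to -0.39. Uqcrfs1, the iron-sulphur subunit, had a change of -2.09 ± 0.53 (adjusted p = 0.116). In WT glands the medians of the genes given here lay above the reference, and each Her2/Neu+ median was lower.

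Many white adipocyte genes were truncated by the scale. Of 16 white adipocyte genes 13 had a negative change and 2 none, with a median of -0.23. In either group or both, 8 of the 16 had at least 50% of that group's values at the limit. That count uses values averaged over probes, so it can miss single probes at the limit. Lpl, lipoprotein lipase, ran from 2.72 to 5.23 against 4.68 to 5.20, and Her2/Neu+ 114 was the lowest. Synthesis of fatty acids and triglycerides had a median of -0.54 over 21 genes, 18 of them negative, and none passed (0 higher and 2 lower at an unadjusted p under 0.05, limma). Agpat2, an enzyme of triglyceride assembly, had a change of -2.10 ± 0.56 (adjusted p = 0.123). Cox7a1, a subunit of cytochrome oxidase in fat and muscle, had a change of -1.88 ± 0.45 (adjusted p = 0.0932). The adipocyte list mean ran from -0.73, on Her2/Neu+ 114, to 0.16 in Her2/Neu+ and from -0.06 to 0.41 in WT glands, and its part in the metabolic lists was not tested. Without Her2/Neu+ 114 the medians were -0.15 for adipocytes and -0.34 for synthesis.

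Glycolysis genes had a median of -0.39 over 16 members, 11 negative. That median was -0.20 without Her2/Neu+ 114, -0.046 without 114 and 119, 0.015 in array set 1 alone and -0.19 after quantile normalization. Aldoc, a fructose-bisphosphate aldolase, was the member with the largest change, 2.94 ± 0.94 (adjusted p = 0.183), spread from -2.43 to 4.17 in Her2/Neu+ and from -1.49 to -0.09 in WT glands. Egln3, a hypoxia-induced prolyl hydroxylase, had a change of 2.29 ± 0.56 (adjusted p = 0.0941). Cytosolic ribosomal protein genes had a median of -0.46 over 25 members, 21 of them negative, which was -0.21 without Her2/Neu+ 119 and -0.031 without 114 and 119, the last inferred slide.

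The extracellular matrix and fibroblast list was lower. Of 26 measured members 21 had a negative change, with a median of -0.58, and 1 fell. Fn1, fibronectin, ran from -4.66 to -2.89 (median -3.54) in Her2/Neu+ and from -2.94 to -0.86 (median -1.47) in WT glands, with 5 of 6 arrays below all WT arrays, and fell by 1.93 ± 0.41 (log2), which is 3.82-fold (adjusted p = 0.0435). Lamb1, a laminin chain, had a change of -2.05 ± 0.54 (adjusted p = 0.120), and the fibrillar collagens Col3a1 and Col1a1 of -1.90 ± 0.52 (adjusted p = 0.147) and -1.21 ± 0.39 (adjusted p = 0.185). The list median was -0.43 without Her2/Neu+ 114, on which Col1a1 stood at -3.68.

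Epithelial markers did not shift together. Luminal genes had a median of 0.38 over 14 members, 10 positive and 4 negative, with none past the threshold. In limma 2 were higher and 1 lower at an unadjusted p under 0.05, beside 627 and 773 of 11942 genes. The luminal median was -0.025 without Her2/Neu+ 118 and 0.24 without WT 55. Epcam, an epithelial adhesion molecule, ran from -0.03 to 5.22 (median 3.07) in Her2/Neu+ against -0.33 to 1.55 (median 0.01) in WT glands, a change of 2.48 ± 0.82 (adjusted p = 0.198), with 4 of 6 arrays above all WT arrays and 3 of 7 WT values repeated. Krt19, another luminal keratin, had a change of -1.57 ± 0.66 (adjusted p = 0.321) and Foxa1, a cofactor of the oestrogen receptor, of -2.04 ± 0.89 (adjusted p = 0.352). Basal and myoepithelial genes had a median of -0.52 over 13 members, or -0.18 without Her2/Neu+ 118, and 8 negative changes, among them Tagln and Acta2, proteins of contractile cells, with changes of -1.46 ± 0.38 (adjusted p = 0.116) and -0.98 ± 0.35 (adjusted p = 0.240). The mean level of the luminal list ran from -0.00085 to 3.46 in Her2/Neu+ and from 1.32 to 2.91 in WT glands, so the luminal level differed more among Her2/Neu+ glands than among WT glands, and its part in the rises of the antiviral, secretory and ERK genes was not tested.

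Cell cycle genes had a median of 0.40 over 27 members, 20 of them positive and none past the threshold. In limma 6 were higher and 0 lower at an unadjusted p under 0.05, beside 627 and 773 of 11942 genes. The list mean on Her2/Neu+ 114 was 1.61, against -0.50 to 0.52 on the other 5 Her2/Neu+ arrays and -0.48 to 0.27 in WT glands, and without that array the median was 0.19. Ccnb2, a mitotic cyclin, had a change of 1.38 ± 0.47 (adjusted p = 0.219) and Cdk1, the mitotic kinase, of 1.55 ± 0.53 (adjusted p = 0.222).

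Markers of immune cells showed no shared direction. T and NK cell genes had a median of -0.41 over 12 members, 10 negative, with 0 past the threshold and 0 at an unadjusted p under 0.05 in limma. With 1 array left out the median ran from -0.79, without Her2/Neu+ 114, to -0.16, without 115, and it was 0.0070 with repeated values missing. B cell genes had a median of 0.17 over 9 members and turned to -0.026 after quantile normalization, to -0.20 without WT 56 and to -0.38 without Her2/Neu+ 114, whose list mean was 2.61, while it was 0.64 without 115. Levels of that list ran from -1.30 to 3.68 in Her2/Neu+ and from -1.85 to 2.12 in WT glands. Macrophage genes had a median of 0.18 over 14 members, which was 0.039 without Her2/Neu+ 113, 0.088 without 114, 0.063 without 119 and 0.050 without WT 60. Cd14, the endotoxin co-receptor, had a change of 2.32 ± 0.60 (adjusted p = 0.116) and Csf1r, the receptor that sustains macrophages, of -1.06 ± 0.29 (adjusted p = 0.151). The medians were 0.24 over 6 neutrophil genes, -0.52 over 10 endothelial genes and -0.36 over 6 skeletal muscle genes, and in limma 0 of these genes passed, with 1 higher and 2 lower at an unadjusted p under 0.05. With 1 array left out these medians ran from 0.11, without Her2/Neu+ 114, to 0.37, without 119, for neutrophils, from -0.68, without 115, to -0.23, without 113, for endothelium, and from -0.43, without 113, to -0.023, without 120, for muscle. Those of endothelium and muscle were 0.18 and 0.063 in array set 2 alone. Kdr, a receptor for vascular growth factor, had a change of -0.84 ± 0.28 (adjusted p = 0.198), with 10 of its 11 probes lower and 1 higher. Several Kdr probes had a WT mean at the limit of 6, so the size of its change is truncated. These lists are given beside the antiviral genes, and their part in those rises was not tested.

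**Figure D4:**
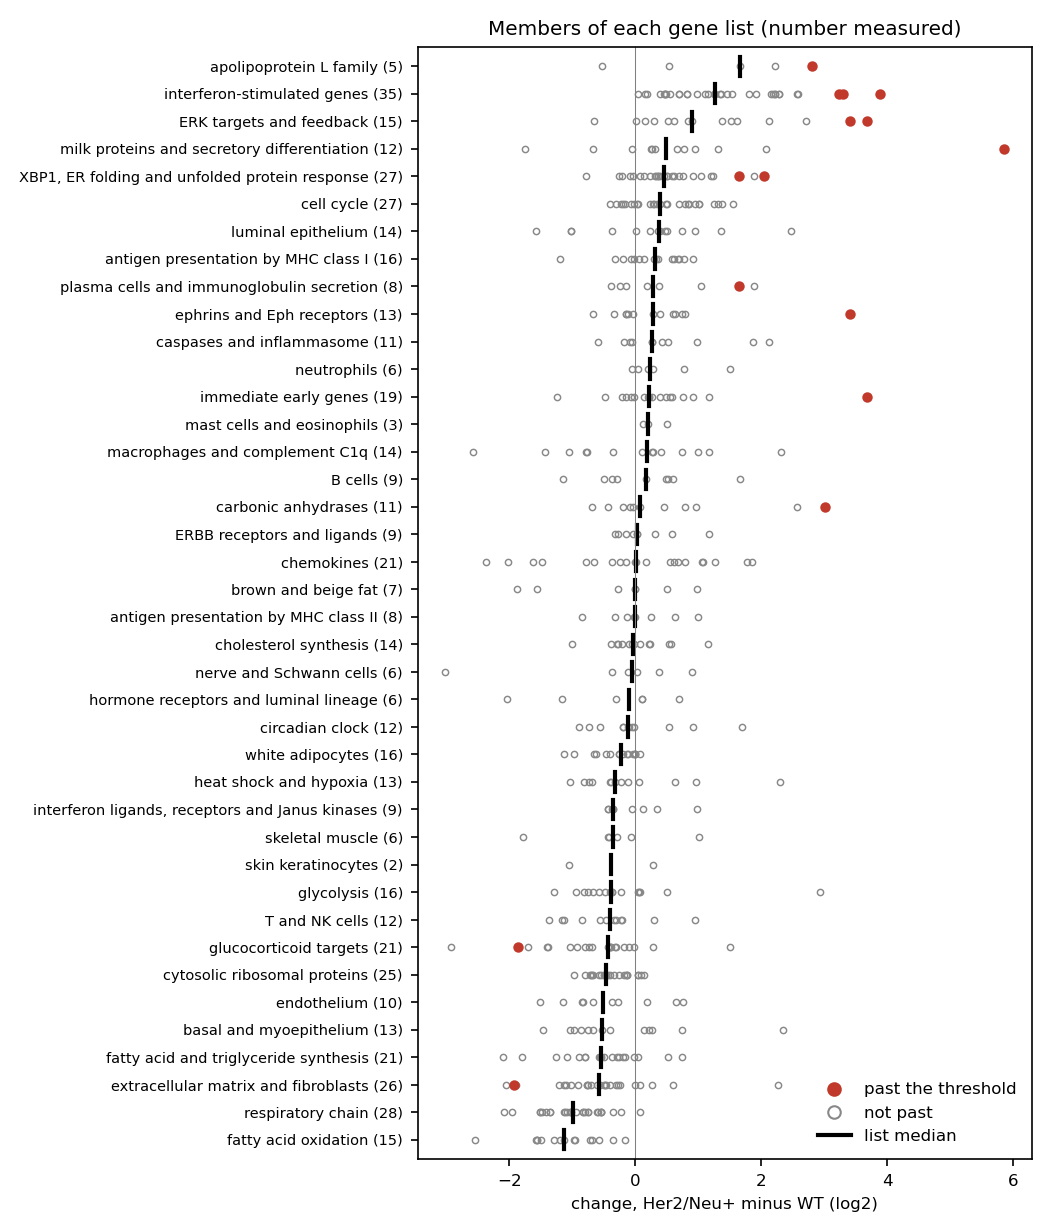
Change of every measured member (x axis, Her2/Neu+ minus WT, log2) of the 40 gene lists, ordered by median (black bar), with the number of measured members in brackets. Filled red points passed the threshold and open grey points did not. Medians run from -1.14 for fatty acid oxidation to 1.66 for the 5 apolipoprotein L genes.

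The remaining genes that rose belong to none of these processes. Car12, a carbonic anhydrase at the cell surface, ran from -0.51 to 2.44 (median 0.99) in Her2/Neu+ and from -2.90 to -1.07 (median -2.17) in WT glands, without overlap, and rose by 3.02 ± 0.58, or 8.10-fold (adjusted p = 0.0210), although 5 of 7 WT values are repeated. Its relative Car6, a secreted carbonic anhydrase, had a change of 2.57 ± 0.71 (adjusted p = 0.147), with 4 of 7 WT values repeated. The median of 11 carbonic anhydrases was 0.067, which was -0.056 without Her2/Neu+ 113, -0.051 without WT 60 and 0.21 without Her2/Neu+ 119. Bglap2, an osteocalcin gene, lay between -0.08 and 0.22 in WT, where all 6 values are repeated, and between -0.05 and 5.79 (median 3.63) in Her2/Neu+ glands, with 5 of 6 arrays above all WT arrays and a rise of 3.34 ± 0.64 (adjusted p = 0.0249). BC018473 lay at the limit on 5 of 6 Her2/Neu+ arrays and between 1.04 and the limit on 5 WT arrays, 3 of them repeated values, and rose by 2.98 ± 0.57 (adjusted p = 0.0294). For Bglap2 and BC018473 the size of the rise is therefore not measured.

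Genes whose arrays do not overlap give a view that uses no estimate of the spread. Among the 9862 genes with a value on all 13 arrays, 31 stood wholly above WT in Her2/Neu+ glands, 0.314% of them, and 17 wholly below, 0.172%. The 12 with the largest positive change were Oas1f, Ier3, Epha2, Oasl2, Oas1a, Car12, Emid1, Apol9b, Oas2, Apol9a, Sdf2l1 and Casp4. Emid1, which encodes a matrix protein with an EMI domain, ran from 5.21 to the limit of 6 against -0.02 to 4.72, and its change of 2.86 ± 1.07 did not pass (adjusted p = 0.267). The 12 with the largest negative change were Prr29, Tsc22d3, Ak1, Lmnb2, Gpa33, Ik, Tbx3, Gcat, Ccs, Wbp2, Ggact and Mknk2, of which Tsc22d3 alone passed the test.

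Prr29 ran from -1.23 to -0.02 against 0.65 to 2.69, a change of -1.90 ± 0.45 (adjusted p = 0.0920), with 4 of 6 Her2/Neu+ values repeated. Tbx3, a transcription factor needed for mammary bud formation and kept in luminal cells, ran from -0.40 to 1.06 against 1.11 to 2.28, a change of -1.23 ± 0.45 (adjusted p = 0.255). Ak1, a kinase that balances adenine nucleotides, had a change of -1.52 ± 0.48 (adjusted p = 0.183), Ccs, the copper chaperone of superoxide dismutase, of -1.06 ± 0.30 (adjusted p = 0.151), and Mknk2, a kinase of the translation factor eIF4E that acts downstream of ERK, of -0.86 ± 0.27 (adjusted p = 0.183). The changes of the other 6, Lmnb2, Gpa33, Ik, Gcat, Wbp2 and Ggact, lay between -1.40 and -0.95, with adjusted p from 0.193 to 0.504. In Lmnb2 4, in Gpa33 3 and in Ggact 5 of the 6 Her2/Neu+ values are repeated.

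Whether a change depends on the receptor was tested as the change with the oncogene in IFNAR1-/- mice minus that in mice with the receptor, over 11466 genes. Tsc22d3 passed, with a difference of 2.41 (adjusted p = 0.0229). With the slide as a random block, and with repeated values missing, 0 genes passed this limma test, Tsc22d3 included. Its group means were 2.50 in WT and 0.63 in Her2/Neu+ glands, and 1.45 in IFNAR1-/- and 1.99 in Her2/Neu+/IFNAR1-/- glands. The other gene that passed, Flywch2, had a difference of -3.06 (adjusted p = 0.0281), but its change with the receptor intact was 0.28 ± 0.37, from 3 Her2/Neu+ and 5 WT values, all 5 of the latter repeated. The other 13 genes past the threshold between Her2/Neu+ and WT did not pass this test, and 1098 genes had an unadjusted p under 0.05. For Oas1a the group means were -3.02 in IFNAR1-/- and 0.31 in Her2/Neu+/IFNAR1-/- glands, and the difference between the changes had an adjusted p of 0.979. For Xbp1 they were 0.06 and 0.78, with an adjusted p of 0.492.

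The number of genes past the threshold depended on single arrays. It was 125 without Her2/Neu+ 115, of which 38 were higher and 87 lower, 23 without Her2/Neu+ 114, 9 without 119, 6 without 120 and 3 without 118. Among WT arrays it was 8 without 60, 9 without 56, 7 without 54 and 8 without 57. Lalba, Xbp1 and Tsc22d3 passed with any 1 array left out, while Oas1f, Oasl2, Oas1a, Epha2 and the others were each lost at least once. Lalba could not be tested with repeated values missing or with limit values missing. All 4 of its WT values are repeated and 5 of its 6 Her2/Neu+ values are at the limit, so its small spread is no measured one. The slides are an inference from block numbers and sample order, and each holds at most 1 of the groups compared here. A difference between slides and the oncogene therefore cannot be told apart, also with the slide as a random block. With the slide as a random block, Lalba, Xbp1 and Tsc22d3 passed and the other 11 were lost, with Oas1f at 3.78 ± 0.84 (adjusted p = 0.111) and Oasl2 at 3.23 ± 0.69 (adjusted p = 0.111). In array set 1 alone, the first 15 arrays of the series, 1 gene passed, Lalba. In array set 2, where 2 arrays are Her2/Neu+, 749 passed, 215 higher and 534 lower. The list medians in sets 1 and 2 were 1.43 and 0.83 for interferon-stimulated genes, 0.46 and 0.70 for ER folding, -0.62 and -1.08 for glucocorticoid targets, and -0.64 and -1.54 for the respiratory chain. With the 2 compared groups alone in the fit 17 genes passed, 9 of them among the 14, and Tsc22d3, Car12, Bglap2, BC018473 and Fn1 were lost (adjusted p from 0.0647 to 0.240).

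**Figure D5:**
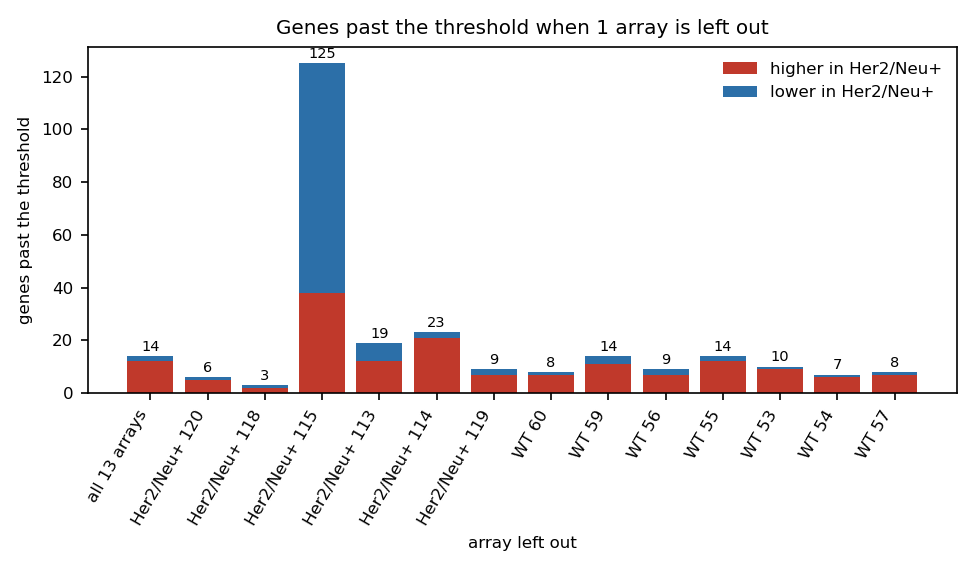
Number of genes past the threshold (y axis) with all 13 arrays and with each array left out in turn (x axis), split into genes higher (red) and lower (blue) in Her2/Neu+. The count is 14 with all arrays and lies between 3, without Her2/Neu+ 118, and 125, without Her2/Neu+ 115.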

How the data were processed

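The values were deposited by the authors as a table of log2 ratios of gland (Cy5) over reference (Cy3), with dyes per the labels' protocols. The log base was inferred from the limit of the scale, and the scanner settings, background correction, normalization and probe filter are not given in the sources used here. Of 20896 probes, 17376 have 1 gene symbol in the platform annotation and 3520 none. Probes with a value on at least 50% of the 6 Her2/Neu+ and of the 7 WT arrays were averaged per symbol, giving 11942 genes, 2778 of them with several probes, and no further scaling was applied. limma 3.58.1 in R 4.3.3 was fitted over all 30 arrays with 4 group means (lmFit, eBayes), two-sided, with Benjamini-Hochberg adjustment over all genes tested, and was tested on simulated data. The table holds no intensities, and precision is limited by the number of arrays. The text names every gene past the threshold, the 12 largest rises and the 12 largest falls among genes whose groups do not overlap, members of each list with the smallest p (up to 4), and Ifnar1, Ifnar2 and Erbb2. Irf7, Ifit3, Isg15, Jchain, Hspa5, Calr, Pdia6, Bst2 and Flywch2 were added after their values were seen. Members, lists and tests were chosen with earlier results of these data known. Lists are described by counts and medians only. Alternatives covered filters, scaling, choice of probe, arrays and groups in the fit, slide, array set, repeated values and thresholds. Leaving out the last inferred slide was added after the data had been seen.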

Additional observations from a re-analysis of the deposited data

Results flagged for a closer look

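In a scan of 250 groups of values, named genes and list means, 24 groups held an array whose gap to the nearest other array exceeded Dixon's criterion, where chance gives about 1 in 20 groups. Her2/Neu+ 114 accounted for 8 of them. It was the highest array for Ifnar1 at 3.66 and for Derl3 at 4.72, and the lowest for Wbp2 at -3.08, Acta2 at -2.37, Col1a1 at -3.68, Lpl at 2.72, Uqcrfs1 at -4.74 and the mean of the glycolysis list at -1.34. Her2/Neu+ 119 accounted for 5, with Ik at -4.99, Csf1r at -0.90, Bhlhe40 at 2.35, Folr1 at -0.03 and Glycam1 at -0.02. Her2/Neu+ 115 was lowest for Lalba at 5.57 and for BC018473 at 5.54, where the other 5 arrays are at the limit of the scale, so the gap comes from that limit. Her2/Neu+ 113 was highest in the mean of the carbonic anhydrase list at 1.25.

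Among WT arrays, WT 60 stood apart for Bglap2 at 0.22, Tap1 at 1.18, Etv1 at -5.34, Glycam1 at 5.95, the others being at the limit, and the mean of the cholesterol synthesis list at -0.74. WT 55 stood apart for Lmnb2 at 3.41, Wbp2 at 0.59 and the mean of the extracellular matrix list at -0.23.

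The change with the oncogene differed between receptor states for Tsc22d3, by 2.41, and for Flywch2, by -3.06, in the limma test of the difference. With the inferred slide as a random block, and with repeated values missing, 0 genes passed that test.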

How the results depend on the processing

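The count of 14 genes past the threshold became 23 after quantile normalization, 194 with array weights, 3 with the inferred slide as a random block, 1 and 749 in array sets 1 and 2 alone, 28 with repeated values missing (7828 genes tested, 9 of the 14 among them), 3 at an adjusted p under 0.01, 1 with a minimum change of 2-fold and 24 without the last inferred slide, an alternative chosen after seeing the data. Leaving out 1 array gave 3 to 125. The other settings gave 12 to 19, among them the fit on the 2 compared groups alone with 17, of which 9 are among the 14 and Tsc22d3 is not. With repeated values missing fewer genes were tested; for the other settings the cause was not tested. The count of 48 genes without overlap, among 9862 genes with a value on every array, became 28 among 3699 with repeated values missing. These counts rest on different numbers of genes, so the lower count is not a lower share. With 1 array left out the count was 56 to 242. The 2 genes past the test of a difference between receptor states became 0 with the slide as a random block and 0 with repeated values missing.

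Changes that turned sign were Erbb2 with the probe of largest SD (-0.37), Ifnar1 in array set 1 alone (-0.057), without Her2/Neu+ 114 (-0.23, with a range of -0.23 to 0.66 over the fits without 1 array) and without the last slide (-0.17), and Aldoc (-0.14) and Folr1 (-0.48) in array set 2 alone. None of these genes passed. No paired analysis was possible because the groups share no sample numbers; the block number on the slide as a covariate left 14 genes. The scale limit, the repeated values and the missing intensities limit what a change near 0 or at 6 can show.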
